A study of Mus musculus with 12 samples.

Results

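The 10 genes described here encode collagen chains of the vessel wall: the fibrillar chains Col1a1, Col1a2, Col3a1, Col5a1 and Col5a2, and the associated chains Col6a1, Col6a2, Col8a1, Col14a1 and Col15a1. They were taken by name from a count table of 27933 genes, and all 10 were among the 14621 genes with enough counts to be tested. The tissue was mouse thoracic aorta, and every animal carried the label of strain C57BL/6J. Wild-type (WT) mice and mice with a knockout of the alpha7 nicotinic acetylcholine receptor (KO) breathed either room air or nicotine vapor for 12 weeks, from the age of 5 months, and tissue was collected at 8 months. The 4 groups are called WT air and WT nicotine, or KO air and KO nicotine, and each held 3 RNA-seq libraries. The labels do not say whether each library came from 1 mouse, so every p-value measures the spread between these libraries, which may be partly technical. For the knockout the labels name no cell type and no promoter.

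Collagens are proteins of the extracellular matrix in which 3 chains wind into a triple helix. Types I and III form the fibrils that carry tension in the aortic adventitia and media, and type V chains join those fibrils and limit their diameter. Type VI forms beaded filaments around cells, type VIII forms a short network laid down by endothelial and smooth muscle cells, type XIV lies on the surface of type I fibrils, and type XV links basement membranes to the fibrils around them. In the adventitia the fibrillar chains are made mainly by fibroblasts, and smooth muscle cells make them in the media.

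The helix is a repeat of triplets that each begin with glycine, so in its coding sequence a GGN codon (glycine) opens each triplet of codons. The stretches below are the first 21 codons of the longest uninterrupted run of this repeat in each transcript (GENCODE M21, build GRCm38). Capitals mark the GGN codon that opens each triplet, and GGN codons at other positions are in lower case. The stretches are shown because the length of the run is what separates the fibrillar chains from the associated chains. Run length was not compared with expression.
Col1a1: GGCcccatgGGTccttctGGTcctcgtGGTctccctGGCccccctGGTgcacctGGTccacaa
Col3a1: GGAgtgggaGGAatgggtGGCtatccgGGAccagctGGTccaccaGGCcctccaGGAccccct
Col5a1: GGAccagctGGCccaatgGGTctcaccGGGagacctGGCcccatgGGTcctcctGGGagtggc
Col6a1: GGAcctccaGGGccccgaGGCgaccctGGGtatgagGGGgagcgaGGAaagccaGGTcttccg
Col8a1: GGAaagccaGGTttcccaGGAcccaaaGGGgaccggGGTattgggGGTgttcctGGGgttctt
Col14a1: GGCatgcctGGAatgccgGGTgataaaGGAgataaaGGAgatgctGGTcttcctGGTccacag
Col15a1: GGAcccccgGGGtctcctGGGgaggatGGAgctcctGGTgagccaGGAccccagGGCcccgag
The run went on for 338 triplets in Col1a1, 339 in Col1a2, 344 in Col3a1, 338 in Col5a1 and 339 in Col5a2. It was 87 triplets in Col6a1 and in Col6a2, 61 in Col8a1, 32 in Col14a1 and 30 in Col15a1.

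Promoter sequence was found for 7 of the 10 genes among the RefSeq promoters of build GRCm38.p6. The 120 bases before the start of 4 of them are shown because Col1a2 and Col3a1 led the levels and Col6a1 and Col6a2 are neighbouring genes whose transcripts kept a steady ratio. Capitals mark CCAAT in Col1a2, TATAAA in Col3a1 and GGGCGG, read on the minus strand as CCGCCC, in Col6a2.
Col1a2 (chr6:4505498-4505617, plus strand): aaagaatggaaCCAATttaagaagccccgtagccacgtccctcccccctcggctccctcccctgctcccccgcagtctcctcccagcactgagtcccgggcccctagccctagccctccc
Col3a1 (chr1:45311418-45311537, plus strand): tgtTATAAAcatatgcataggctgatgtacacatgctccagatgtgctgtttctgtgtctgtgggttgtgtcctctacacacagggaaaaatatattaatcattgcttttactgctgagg
Col6a1 (chr10:76726045-76726164, minus strand): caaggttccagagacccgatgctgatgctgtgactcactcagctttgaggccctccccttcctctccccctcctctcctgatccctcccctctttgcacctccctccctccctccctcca
Col6a2 (chr10:76623405-76623524, minus strand): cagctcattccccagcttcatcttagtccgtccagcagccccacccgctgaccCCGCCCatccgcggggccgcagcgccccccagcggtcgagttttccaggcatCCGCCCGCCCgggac
Over the full window of 250 bases before to 50 bases after the start, both strands counted, CCAAT was found in Col1a2 alone of the 7, against 37.9% of all 27025 promoters. TATAAA was found in Col3a1 alone, against 14.2% of all promoters. GGGCGG was found in Col1a2, Col5a1, Col6a2 and Col8a1, against 35.9% of all promoters. These matches describe the letters only.

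The libraries held 10240031 to 12628323 counts over 17995 to 19484 genes with a count. Smooth muscle markers were abundant in every library (summed over 12 genes, 26412 to 53370 CPM, read counts scaled to a common library total). Chrna7, the gene of the deleted receptor, had 9 to 37 counts in the WT libraries and 8 to 28 in the KO libraries, ranges that overlap. The labels do not say which part was deleted, so these counts check nothing. The library KO nicotine 3 stood apart in hepatocyte markers, with a summed level of 2792 CPM against 30.7 to 503 CPM in the other 11 libraries. Its skeletal muscle markers summed to 211 CPM, against 9.47 to 47.9 CPM in the other 11. No 2 libraries of a group agreed within counting noise.

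Together the 10 collagen genes took 0.642% (KO nicotine 4) to 1.09% (WT nicotine 6) of a library's counts. The mean share in WT was 0.815% ± 0.098 after air and 0.946% ± 0.127 after nicotine. In KO it was 0.857% ± 0.176 and 0.771% ± 0.183 (SD, n = 3 each), and the groups overlapped. Scaled per kilobase of transcript, Col1a2 was the most abundant at 423 ± 73.9 CPM per kb (mean and SD over 12 libraries). Col3a1 followed at 322 ± 71.4, Col1a1 at 261 ± 63.1 and Col6a2 at 171 ± 26.9 CPM per kb. Each of these 4 exceeded the next in all 12 libraries. Below them the order was less settled. Col6a1, at 96.1 CPM per kb, exceeded Col14a1, at 81.8, in 10 of 12 libraries. Col14a1 exceeded Col15a1, at 72.0, in 7 of 12, and Col15a1 exceeded Col5a1, at 67.7, in 7 of 12, so these neighbours did not differ beyond their spread. Col5a2 at 45.2 and Col8a1 at 11.3 CPM per kb closed the order in all 12 libraries.

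No collagen gene passed the test in any of 7 comparisons (edgeR, Benjamini-Hochberg adjusted over 14621 genes, threshold 0.05). The count was 0 of 10 for nicotine in WT, where 0.0205% of all genes passed, and 0 of 10 for KO against WT under nicotine, where 0.00684% passed. It was 0 of 10 for nicotine in KO, for KO against WT in air, for the difference between the nicotine effects (the interaction), for nicotine averaged over genotypes and for genotype averaged over exposures, and in each of these 0% of all genes passed. The data thus hold few calls for any gene, and the collagen counts do not stand out from that background. Col14a1 came nearest, with values that set the WT nicotine libraries apart. Below, values are CPM scaled by the trimmed mean of M-values (TMM). For WT they follow libraries 8, 9 and 10 after air and 6, 11 and 12 after nicotine, and for KO libraries 1, 2 and 7 after air and 3, 4 and 5 after nicotine. Fold changes are log2 with their standard error and come from edgeR's quasi-likelihood fit.

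**Figure D1:**
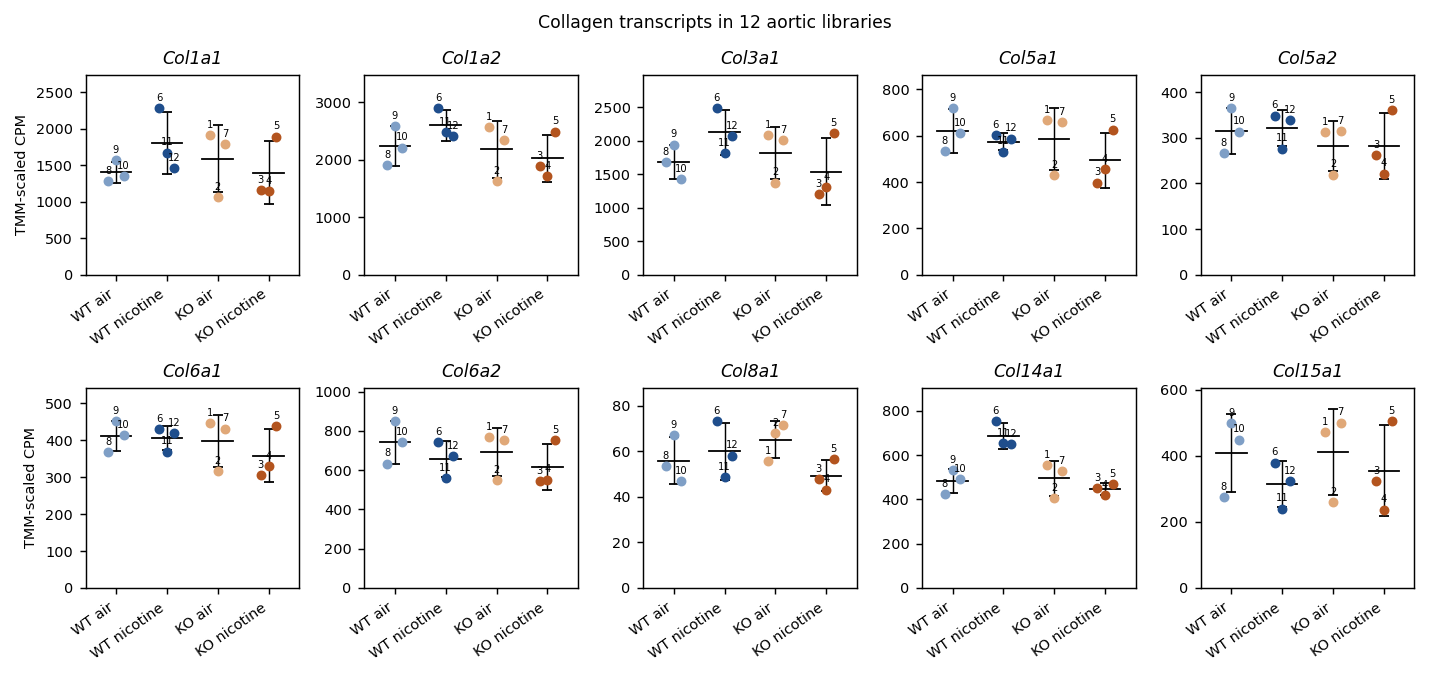
TMM-scaled CPM of each of the 10 collagen genes (vertical axes, linear from 0) in the 4 groups, with 1 point per library labelled by its number and bars for the mean and SD (n = 3). Col14a1 is the gene whose 3 WT nicotine libraries lie above all 9 others, and in the KO groups libraries 2, 3 and 4 lie low in most panels.

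Type I collagen is the main tensile fibril of the wall, built from Col1a1 and Col1a2 chains. Col1a1 stood at 1286, 1569 and 1351 CPM in WT after air and at 2288, 1676 and 1466 CPM after nicotine. Col1a1 in the KO stood at 1909.9, 1063 and 1792 CPM after air and at 1157, 1145 and 1894 CPM after nicotine. WT nicotine 6 was the highest of the 12 libraries and KO air 2 the lowest, and the groups overlapped. Col1a1 differed by 0.37 ± 0.25 with nicotine in WT (adjusted p = 0.663, edgeR) and by -0.18 ± 0.25 in KO (adjusted p = 0.917, edgeR). Col1a2 stood at 1906, 2592 and 2209 CPM in WT after air and at 2902, 2480.4 and 2406 CPM after nicotine. Col1a2 in the KO stood at 2573, 1627 and 2342 CPM after air and at 1883, 1712 and 2489 CPM after nicotine. The order of the libraries was much the same, with WT nicotine 6 at the top and KO air 2 at the bottom. Col1a2 differed by 0.22 ± 0.20 with nicotine in WT and by -0.10 ± 0.20 in KO, each with a 95% interval that spans 0.

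Col3a1, the chain of type III collagen, forms the finer fibrils of distensible vessels. Col3a1 stood at 1681, 1945 and 1425 CPM in WT after air and at 2493, 1817 and 2069 CPM after nicotine. Col3a1 in the KO stood at 2083, 1378 and 2013 CPM after air and at 1202, 1303 and 2114 CPM after nicotine. Libraries 6 and 3 were its extremes. Col3a1 differed by 0.34 ± 0.23 with nicotine in WT (95% interval -0.17 to 0.84) and by -0.24 ± 0.23 in KO (95% interval -0.75 to 0.26). Between genotypes under nicotine it differed by -0.47 ± 0.23 (adjusted p = 0.642, edgeR), and the 2 groups overlapped through KO nicotine 5.

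Type V collagen starts and limits fibrils of types I and III, with the Col5a1 chain as its common part. Col5a1 stood at 532, 720.4 and 612 CPM in WT after air and at 603, 532 and 588 CPM after nicotine. Col5a1 in the KO stood at 667, 431 and 658 CPM after air and at 398, 457 and 626 CPM after nicotine. WT air 9 was the highest library and KO nicotine 3 the lowest. Col5a1 differed by -0.11 ± 0.20 with nicotine in WT and by -0.25 ± 0.20 in KO, and neither passed the test. Col5a2 stood at 266, 365 and 313 CPM in WT after air and at 348, 276 and 338 CPM after nicotine. Col5a2 in the KO stood at 312, 219 and 314 CPM after air and at 262, 221 and 361 CPM after nicotine. Col5a2 was close to level with nicotine, at 0.03 ± 0.20 in WT and -0.0003 ± 0.20 in KO. The 95% intervals, -0.40 to 0.45 and -0.42 to 0.42, bound what these libraries could have shown.

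Type VI filaments contain Col6a1, Col6a2 and further chains. Col6a1 stood at 369, 452 and 414 CPM in WT after air and at 431, 369.8 and 419 CPM after nicotine. Col6a1 in the KO stood at 447, 317 and 432 CPM after air and at 306, 331 and 439.5 CPM after nicotine. Col6a2 stood at 633, 849 and 744 CPM in WT after air and at 742, 559.8 and 671 CPM after nicotine. Col6a2 in the KO stood at 770.2, 549 and 754 CPM after air and at 543, 552 and 753 CPM after nicotine. Both genes were highest in WT air 9 and lowest in KO nicotine 3. Col6a1 differed by -0.02 ± 0.17 with nicotine in WT and by -0.15 ± 0.17 in KO. Col6a2 differed by -0.17 ± 0.18 in WT and by -0.17 ± 0.18 in KO, and the groups overlapped for both genes.

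Col8a1 encodes a chain of the short type VIII network, which vascular cells lay down during remodelling. Col8a1 stood at 53.6, 67.2 and 47.0 CPM in WT after air and at 73.3, 48.7 and 58.1 CPM after nicotine. Col8a1 in the KO stood at 55.9, 68.0 and 71.4 CPM after air and at 48.0, 43.2 and 56.7 CPM after nicotine. Unlike most of the other collagen genes it was not low in KO air 2. Col8a1 differed by -0.40 ± 0.17 with nicotine in KO (95% interval -0.78 to -0.03, unadjusted p = 0.0382, adjusted p = 0.878, edgeR), and KO nicotine 5 lay within the range of KO air. It was the only member with an unadjusted p under 0.05 in that comparison, as were 4.58% of all genes. In WT Col8a1 differed by 0.10 ± 0.17.

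Col14a1 encodes type XIV collagen, which sits on fibril surfaces and ties neighbouring fibrils together. Col14a1 stood at 423, 533 and 491 CPM in WT after air and at 754, 656 and 649 CPM after nicotine. Col14a1 in the KO stood at 557, 407 and 527 CPM after air and at 453, 419 and 471 CPM after nicotine. All 3 WT nicotine libraries lay above the other 9, and the other 3 groups overlapped one another. Col14a1 differed by 0.51 ± 0.14 with nicotine in WT (95% interval 0.20 to 0.82), with an adjusted p of 0.279 in edgeR. In KO the difference was -0.15 ± 0.14 (95% interval -0.46 to 0.16), and the interaction, KO effect minus WT effect, was -0.66 ± 0.20 (unadjusted p = 0.00644, adjusted p = 0.999, edgeR). Under nicotine the KO libraries differed from WT by -0.62 ± 0.14, with an adjusted p of 0.291 in edgeR. DESeq2 run on the same counts called that difference, at -0.62 with an adjusted p of 0.0082, in a comparison where it called 0.53% of all genes. For nicotine in WT, DESeq2 gave an adjusted p of 0.0501, which misses the threshold of 0.05, and it called 0 of 10 collagen genes beside 0.676% of all genes. In the authors' deposited table Col14a1 had a log2 fold change of 0.51 for WT nicotine against WT air with an adjusted p of 0.0995, and 0.714% of the listed genes passed. The 2 comparisons in which Col14a1 stands out share the WT nicotine libraries, so they are not separate evidence.

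Fibroblast markers lay on the same side of 0 as Col14a1. All 12 lay above 0 for nicotine in WT (median 0.26, log2) and all 12 below 0 for KO against WT under nicotine (median -0.27), and none of them passed the test. Their summed level in WT was 2245 to 2821 CPM after air and 2778 to 3241 after nicotine. In KO it was 2085 to 2855 CPM and 2197 to 2478 CPM. The fibroblast score of each library was also held as a covariate, an alternative chosen after seeing the data. The Col14a1 difference was then 0.23 for nicotine in WT (adjusted p = 0.501, edgeR). For KO against WT under nicotine it was -0.34 (adjusted p = 0.666, edgeR). A fit that held the adipocyte score instead moved Col14a1 the other way in WT, to 0.69 (adjusted p = 0.158, edgeR), and gave -0.63 under nicotine (adjusted p = 0.0509, edgeR). Macrophage markers also lay on its side, with 11 of 12 above 0 for nicotine in WT (median 0.78), 10 of 12 below 0 for KO against WT under nicotine (-0.35) and 10 of 12 below 0 for the interaction (-0.70). In that genotype comparison under nicotine, hepatocyte markers lay above 0 in 9 of 9 (3.48), skeletal muscle in 10 of 10 (1.23), mesothelial in 8 of 8 (0.77) and endothelial in 10 of 12 (0.16). In KO nicotine 3, 4 and 5 hepatocyte markers summed to 2792, 307 and 58.2 CPM (WT nicotine 30.7 to 162). Skeletal muscle markers summed to 211, 42.1 and 9.47 CPM (WT nicotine 11.9 to 47.9). Mesothelial markers summed to 76.2, 22.5 and 15.6 CPM (WT nicotine 18.1 to 24.2). KO nicotine 3 was thus the highest in each, and KO nicotine 5 lay within or below the WT nicotine range. The part of these cell types in the Col14a1 difference was not tested beyond the fibroblast and adipocyte fits. In bulk tissue a change in the number of cells of a type and a change in RNA per cell cannot be told apart.

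Col15a1 encodes type XV collagen of the basement membrane zone of muscle and capillaries. Col15a1 stood at 274, 500.5 and 449.7 CPM in WT after air and at 379.9, 240.4 and 325 CPM after nicotine. Col15a1 in the KO stood at 472, 261 and 501 CPM after air and at 324, 237 and 505 CPM after nicotine. Its libraries fell into a high and a low range within 3 of the 4 groups. WT air 8 lay apart from libraries 9 and 10, KO air 2 from 1 and 7, and KO nicotine 5 from 3 and 4. Col15a1 differed by -0.37 ± 0.33 with nicotine in WT (95% interval -1.11 to 0.36) and by -0.21 ± 0.33 in KO, the widest intervals of the 10 genes. A fit that included each library's adipocyte score put the WT difference at 0.26. Col15a1 overlaps Gm12426 in the annotation, and the library kit does not mark strand, so its reads cannot be separated from those of that gene. Col15a1 also overlaps Gm32317, Gm52732, Gm52733 and Gm52734, none of which is in the count table. Other genes of the 10 overlap annotated genes too. Col14a1 overlaps Gm18787 and Gm52209, and Col5a1 overlaps Gm13372. None of these 3 is in the count table, so their reads could not be told apart either.

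**Figure D2:**
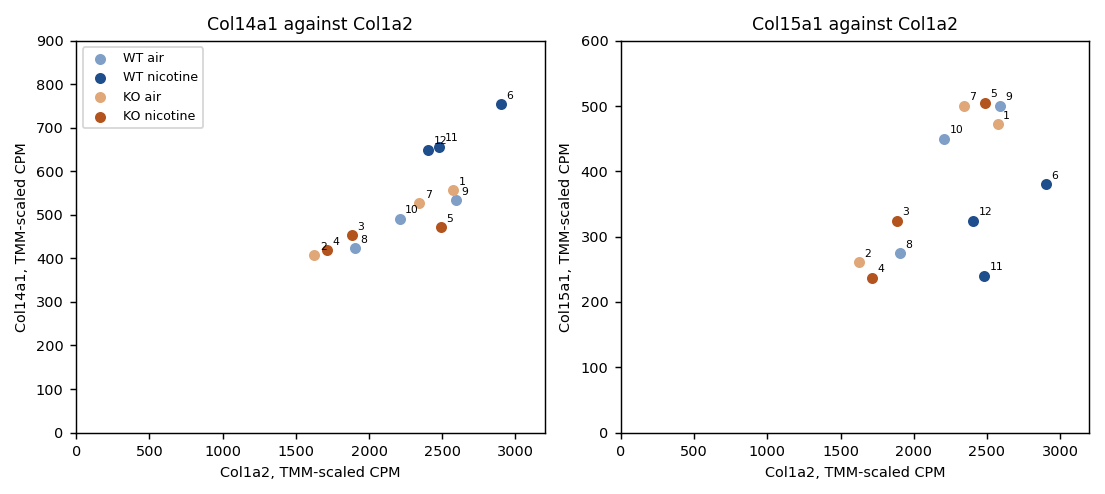
Col14a1 (left) and Col15a1 (right) against Col1a2 in each library (TMM-scaled CPM on linear axes from 0), coloured by group and labelled by library number. The 3 WT nicotine libraries sit above the other points for Col14a1, and for Col15a1 they sit to the right of points of similar height.

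Set against Col1a2 within a library, Col14a1 gave count ratios of 0.260 to 0.270 in WT nicotine and 0.189 to 0.250 in the other 9 libraries. Col15a1 over Col1a2 gave 0.0969 to 0.135 in WT nicotine and 0.139 to 0.214 elsewhere. These 2 ratios were chosen after their values were seen, so they are given as a description with no test. Col6a2 was low against Col1a2 as well in WT nicotine, with 7540, 6677 and 8218 counts beside 29499, 29584 and 29464. In WT air it had 7273, 10309 and 9223 counts beside 21904, 31457 and 27390. A low ratio in WT nicotine is thus not particular to Col15a1.

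Across the 10 genes, nicotine in WT gave log2 fold changes from -0.37 to 0.51 with a median of 0.06, 6 above 0 and 4 below, beside a median of -0.005 over all genes tested. In a fit that included the adipocyte score, 10 of 10 lay above 0 in WT, with a median of 0.32. Without WT nicotine 6 the WT median was -0.03, and without WT air 9 it was 0.20. In KO nicotine gave a median of -0.17, from -0.40 to -0.0003, with 10 of 10 below 0, and the count was 9 of 10 under DESeq2 size factors, where Col5a2 lay just above 0, and 7 of 10 in a fit that included the adipocyte score, with a median of -0.04. Leaving out 1 library moved the KO median from -0.39 (without KO nicotine 5) to -0.07 (without KO air 1). The all-gene median there was 0.01. KO against WT in air gave a median of -0.01 with 5 above 0 and 5 below, and 0.15 without KO air 2. KO against WT under nicotine gave a median of -0.25 with 1 above and 9 below, and the interaction gave -0.23 with 2 above and 8 below. These comparisons share groups with those before them. With the fibroblast score as a covariate, chosen after seeing the data, the medians turned to -0.21 for nicotine in WT, 0.06 for KO against WT under nicotine and 0.15 for the interaction. Col14a1 was the only gene of the 10 whose groups did not overlap for nicotine in WT (1 of 10 higher and 0 lower, against 7.13% and 6.05% of all genes) and for KO against WT under nicotine (1 of 10 lower and 0 higher, against 5.59% and 5.8%). No gene of the 10 had groups apart for nicotine in KO (5.13% of all genes higher and 5.55% lower) or for KO against WT in air (5.75% higher and 6.06% lower). At an unadjusted p under 0.05 stood 1 of 10 for nicotine in WT, beside 9.84% of all genes, 1 of 10 for KO against WT under nicotine, beside 8.34%, and 1 of 10 for the interaction, beside 4.43%. For genotype averaged over exposures the count was 1 of 10, beside 8.41%, and each of these was Col14a1. For KO against WT in air it was 0 of 10, beside 4.36%, and for nicotine averaged over genotypes 0 of 10, beside 10.9%.

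**Figure D3:**
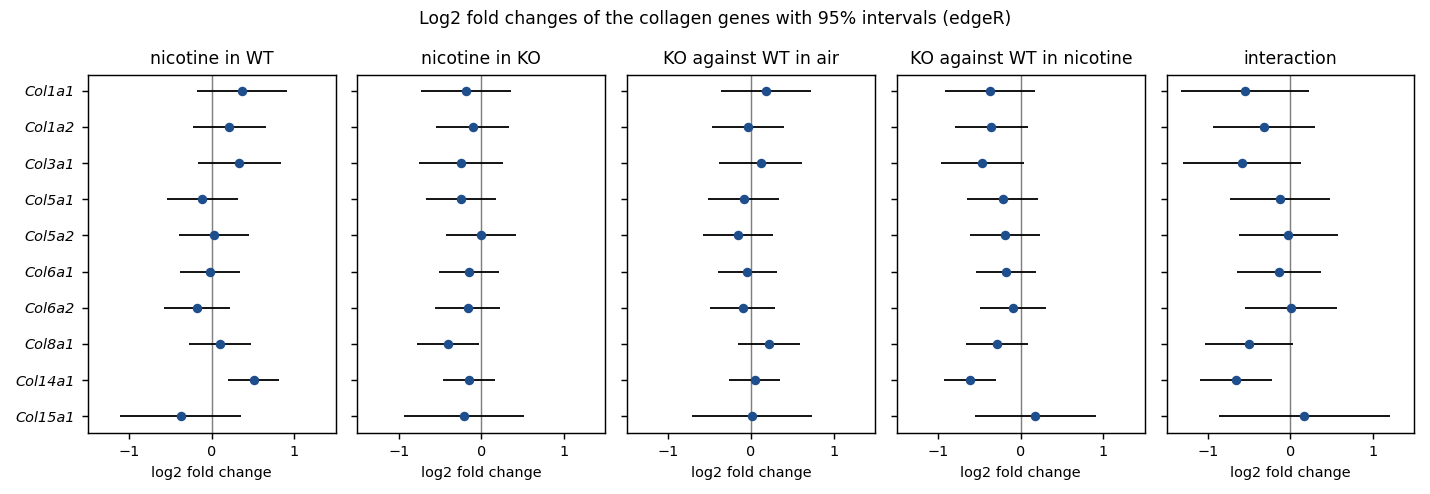
Log2 fold changes (horizontal axes, points) with 95% intervals (lines) of the 10 collagen genes in 5 comparisons, from edgeR's fit to all 12 libraries. Col14a1 is the gene whose interval lies off 0 for nicotine in WT, for KO against WT under nicotine and for the interaction, and Col8a1 the one for nicotine in KO.

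The spread between libraries of one group was larger than the differences between groups for most of these genes. KO nicotine 3 and 4 lay below KO nicotine 5 in 10 of 10 genes, KO air 2 lay below KO air 1 and 7 in 9 of 10, and WT air 8 lay below WT air 9 and 10 in 8 of 10. Of the 12 libraries, KO nicotine 4 was among the lowest 3 in 10 of 10 genes, KO air 2 in 9 and KO nicotine 3 in 8. WT air 9, WT nicotine 6 and KO air 1 were each among the highest 3 in 6 of 10. Hepatocyte markers summed to 2792 CPM in KO nicotine 3, 503 CPM in KO air 2, and 307 CPM in library 4 of KO nicotine. They summed to 242 CPM in KO air 7, which was among the lowest 3 in 0 of 10 genes, and to 83.0 CPM in WT air 8. Adipocyte markers summed to 8663 CPM in KO nicotine 4 against 1843 to 5870 CPM in the other 11. Mitochondrial transcripts, a sign of RNA quality or cell state, took 7.52% of counts in WT air 8, 7.25% in KO nicotine 4, 6.23% in KO nicotine 3 and 5.70% in KO air 2, against 3.004% to 5.06% in the other 8 libraries. Those 4 libraries also had the lowest mean log2 CPM over the 10 collagen genes. The part of these markers and transcripts in the low collagen values was not tested. Without KO nicotine 3, no collagen gene passed in any of the 7 comparisons (edgeR), of which those that do not use this library were refitted as an alternative chosen after seeing the data.

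**Figure D4:**
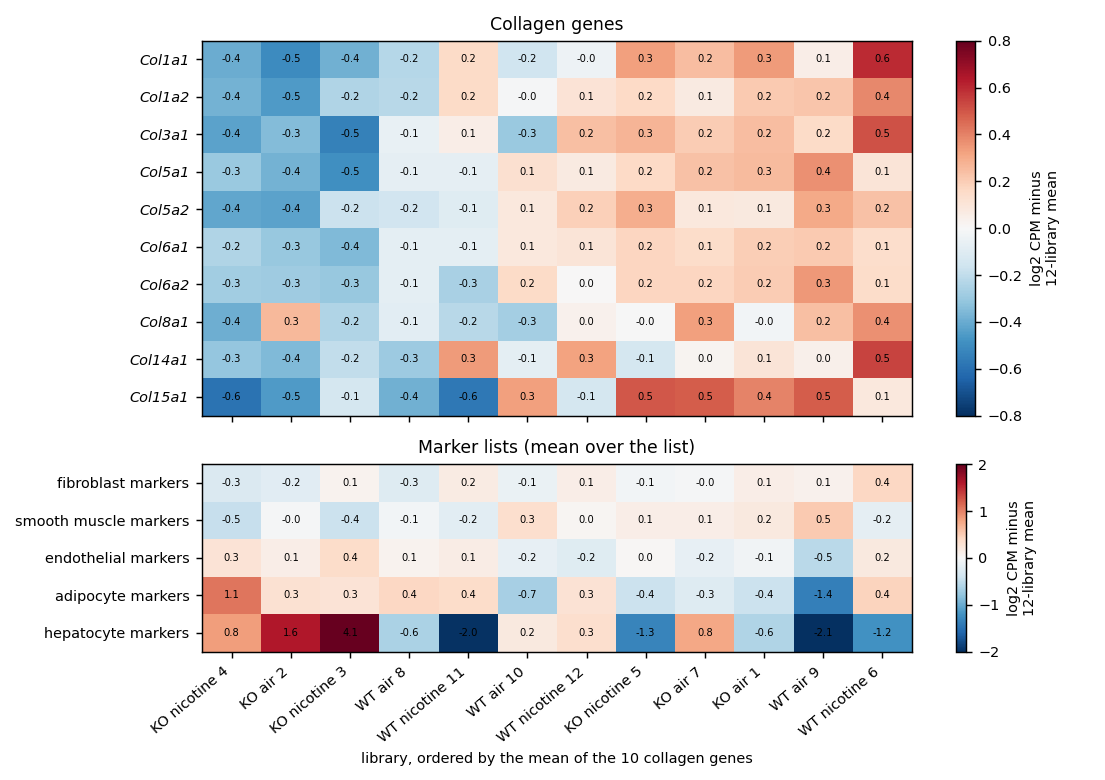
Log2 CPM of each collagen gene (upper panel) and mean log2 CPM of 5 marker lists (lower panel) in each library, minus the mean over 12 libraries, with libraries ordered by the mean of the 10 genes from low to high. Most rows of the upper panel go from blue to red together, and Col8a1, Col14a1 and Col15a1 depart from that order. The lower colour scale stops at 2 below and above 0, past which hepatocyte markers lie in KO nicotine 3.

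The collagen genes moved together from library to library. Once group means were removed, the Pearson r of 45 gene pairs had a median of 0.87 (0.29 to 0.99, 12 libraries). Pairs with Col8a1 were the weakest, at 0.29 to 0.57, and pairs without it ran from 0.67 to 0.99. With group means left in, the median was 0.75, and without KO nicotine 4 and KO air 2, the libraries farthest from the median, it was 0.66 over 10 libraries (-0.16 to 0.97). All pairs share the same libraries and the same depth, so these values are a description with no test. In the annotation Col3a1 and Col5a2 are adjacent genes, and so are Col6a1 and Col6a2.

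Collagen chains are best compared within a library, where depth cancels. Of the ratios tested, Col3a1 over Col1a1 and Col5a1 over Col1a1 set chains of different collagen types against each other. Col6a1 over Col6a2 had the smallest spread within groups of 5 ratios (SD 0.06, log2). It ran from 0.532 to 0.661 in counts, with WT means of 0.557 ± 0.025 after air and 0.622 ± 0.040 after nicotine and KO means of 0.576 ± 0.004 and 0.582 ± 0.018 (SD, n = 3). With nicotine it differed by 0.09 on the log2 scale (exact permutation within genotype, two-sided, p = 0.07, adjusted over 10 tests 0.233), by 0.16 in WT and by 0.01 in KO, a contrast that was not tested by itself. Col1a1 over Col1a2 ran from 0.605 to 0.788, and per length it averaged 0.614 over 12 libraries. These are ratios of reads, so they do not measure the 2-to-1 chain composition of the type I protein. Col5a1 over Col5a2 averaged 1.97 ± 0.02 and 1.80 ± 0.11 in WT after air and nicotine, and 2.07 ± 0.09 and 1.77 ± 0.27 in KO. Averaged over genotypes it differed with nicotine by -0.18 on the log2 scale (exact permutation within genotype, two-sided, p = 0.025, adjusted over 10 tests 0.225). Col5a1 over Col1a1 averaged 0.442 ± 0.025 in WT after air and 0.327 ± 0.069 after nicotine, and those libraries did not overlap. Its KO means were 0.374 ± 0.028 after air and 0.358 ± 0.036 after nicotine. With nicotine it differed by -0.26 overall (exact permutation, two-sided, p = 0.045, adjusted 0.225), by -0.45 in WT and by -0.07 in KO, a contrast that was not tested by itself. None of the 10 ratio tests passed after adjustment, and 400 arrangements allow no p below 0.005.

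**Figure D5:**
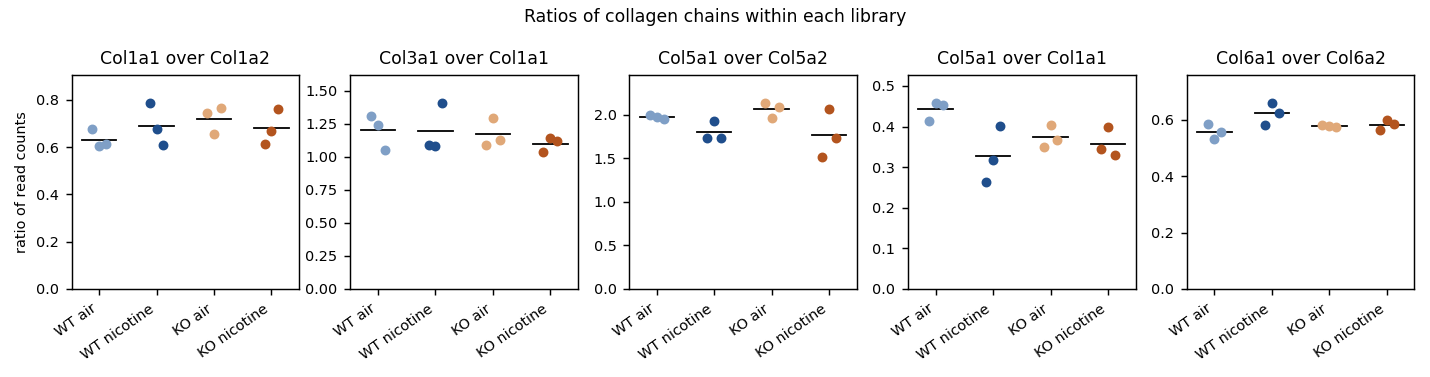
Count ratios of collagen chains in each library (vertical axes, linear from 0) by group, with lines at the group means (n = 3). Col6a1 over Col6a2 runs from 0.532 to 0.661 over the 12 libraries, and Col5a1 over Col1a1 is lower in the 3 WT nicotine libraries than in the 3 WT air libraries.

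The genes that make, process, bind and break down collagen were described from 6 lists. None of their genes passed in edgeR in any comparison. Of 27 genes for folding, modification and crosslinking, 0 passed for nicotine in WT, with 8 above 0, 19 below and a median of -0.10. P4ha1, a prolyl hydroxylase subunit that stabilises the helix, averaged 196 ± 70.9 and 257 ± 117 CPM in WT after air and nicotine, and 88.8 ± 10.5 and 119 ± 44.1 CPM in KO. It differed by -1.12 ± 0.28 between genotypes averaged over exposures (adjusted p = 0.346, edgeR), and DESeq2 called it at an adjusted p of 0.00233, where it called 0.784% of all genes. Plod1, a lysyl hydroxylase, differed there by -0.32 ± 0.10. Loxl2, a crosslinking oxidase, averaged 38.3 ± 7.38 CPM in KO air and 27.0 ± 6.47 in KO nicotine (-0.50 ± 0.19, adjusted p = 0.878, edgeR). In WT it lay the other way, at 37.4 ± 4.45 CPM after air and 47.4 ± 6.49 after nicotine. Its interaction was -0.84 ± 0.27 (unadjusted p = 0.00823, adjusted p = 0.999, edgeR).

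Of 7 tested genes for propeptide processing, 6 lay above 0 for nicotine in WT and 2 above 0 in KO, and 0 passed in either. Pcolce2, an enhancer of the C-propeptide protease, averaged 119 ± 14.8 CPM in WT air and 147 ± 10.5 in WT nicotine, with no overlap (0.31 ± 0.14, adjusted p = 0.486, edgeR). Tll1, one of those proteases, was scarce, at 0.892 CPM in WT air and 3.49 in WT nicotine. Of 15 fibril-binding proteins, 0 passed, with 11 above 0 for nicotine in WT (median 0.16) and 15 of 15 below 0 in KO (median -0.10). Their summed level was 11601, 10564 and 15025 CPM in KO nicotine 3, 4 and 5. In KO air it was 10735 to 16050 CPM, so these 2 groups overlapped. Ogn, a small leucine-rich proteoglycan, averaged 652 ± 48.2 CPM in KO air and 489 ± 55.6 in KO nicotine with no overlap (-0.41 ± 0.12, adjusted p = 0.878, edgeR). Dcn, which coats type I fibrils, averaged 969.6 ± 125 CPM in WT air and 1180.0 ± 17.4 in WT nicotine. Aspn, of the same family, differed by 0.33 ± 0.14 in WT.

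Of 11 collagen receptors, 0 passed, with 5 above 0 for nicotine in WT and 11 of 11 below 0 in KO. The summed receptor level did not fall in each library. It was 2392, 2344 and 3316 CPM in KO nicotine 3, 4 and 5, against 2712 to 3285 CPM in KO air. Ddr1, a receptor kinase that binds fibrils, averaged 70.3 ± 11.3 CPM in WT air and 52.9 ± 4.34 in WT nicotine (-0.41 ± 0.15, adjusted p = 0.404, edgeR). Of 12 tested collagen-degrading enzymes and inhibitors, 0 passed, with 8 above 0 for nicotine in WT (median 0.22) and 5 in KO (median -0.17). Mmp2, a gelatinase, averaged 100.01 ± 5.81 CPM in WT air and 143 ± 35.4 in WT nicotine with no overlap (0.52 ± 0.18, adjusted p = 0.402, edgeR). Ctsk, a lysosomal collagenase, differed by 0.42 ± 0.21 there.

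Of 19 tested genes of the transforming growth factor beta pathway and profibrotic regulators, 0 passed in edgeR, with 12 above 0 for nicotine in WT (median 0.13) and 8 in KO (median -0.02). Ctgf, a matricellular regulator of fibrosis, averaged 2189 ± 469 and 3655 ± 138 CPM in WT after air and nicotine, and 1478 ± 563 and 1938 ± 297 CPM in KO. Averaged over exposures Ctgf differed by -0.74 ± 0.18 between genotypes (adjusted p = 0.243, edgeR), and DESeq2 called it at 0.00716. Postn stands in this list and among the fibril-binding proteins, and Acta2 stands in it and among the smooth muscle markers.

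Among the other collagen genes, 34 in the table and 25 tested, 0 passed in any comparison. Col12a1, a fibril-associated chain related to Col14a1, averaged 60.4 ± 4.27 and 84.2 ± 5.71 CPM in WT after air and nicotine, and 61.8 ± 6.32 and 58.1 ± 7.13 CPM in KO. Its WT nicotine libraries did not overlap WT air (0.48 ± 0.12, adjusted p = 0.249, edgeR), and its interaction was -0.57 ± 0.17. The most abundant others were Col18a1 at a mean of 1933 CPM, Col4a1 at 1402, Col4a2 at 833, Col6a3 at 641 and Col4a5 at 305 CPM. Col18a1, the type XVIII relative of Col15a1, differed by -0.43 ± 0.24 with nicotine in WT. Col6a3, the third chain of type VI, differed by -0.26 ± 0.22 there.

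Markers of other cells in the wall were tallied beside these results. None of the marker genes passed in edgeR in any comparison. For nicotine in WT, 11 of 12 smooth muscle markers lay below 0 (median -0.45), 10 of 12 endothelial markers above (0.30), 11 of 12 adipocyte markers above (0.72) and 11 of 12 macrophage markers above (0.78). In KO, nicotine gave 11 of 12 below for smooth muscle (-0.34), 10 of 12 above for endothelium (0.27), 12 of 12 above for adipocytes (0.60) and 9 of 12 above for macrophages (0.07). Of the rarer types in WT, mesothelial markers had 8 of 8 above 0, skeletal muscle 9 of 10, cartilage 1 of 6, Schwann cells 3 of 5 and hepatocytes 5 of 9 (median 0.04). In KO, where all 10 collagen genes lay below 0 with nicotine, hepatocyte markers had 9 of 9 above 0 (1.92), skeletal muscle 10 of 10 (2.29), mesothelial 3 of 8, cartilage 5 of 6 and Schwann cells 3 of 5. The hepatocyte and skeletal muscle shifts did not hold in each library. KO nicotine 3 held 2792 and 211 CPM of these markers. KO nicotine 5 held 58.2 and 9.47 CPM, below every KO air library (101 to 503 and 10.6 to 16.9 CPM). Summed macrophage levels were 304 to 329 CPM in WT air and 497 to 662 CPM in WT nicotine. Fat had been cleaned off the aortas before freezing, per the labels, and summed adipocyte levels were 1843 to 5635 CPM in WT air and 4999 to 5790.5 CPM in WT nicotine. Their part in the collagen values was not tested, apart from fits with the adipocyte or the fibroblast score as a covariate, in which 0 of 10 collagen genes passed in every comparison.

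The genes whose log2 CPM was most like the mean of the 10 collagen genes over 12 libraries were Plat (Pearson r 0.92), Atp6ap1 (0.92), Fn1 (0.92), Cd109 (0.91), Timp2 (0.91), Aebp1 (0.91), Sod3 (0.91), Adamts2 (0.90), Rpn2 (0.90) and Mgat5 (0.90). By single gene the nearest were Mmp14 for Col1a1 (0.91), Adamts2 for Col1a2 (0.94), Fbn1 for Col3a1 (0.94), Crispld2 for Col5a1 (0.97) and Col6a1 (0.95), and Dse for Col5a2 (0.95). For the others they were Sod3 for Col6a2 (0.97), Lpcat2 for Col8a1 (0.90), Rap1b for Col14a1 (0.92) and Eif4g3 for Col15a1 (0.93). Adamts2 encodes a protease that trims procollagen and Fbn1 the microfibril protein of elastic tissue. These likenesses were picked as the highest among all genes tested and carry no test.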

How the data were processed

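The 12 thoracic aorta libraries were made with the SMART-Seq v4 kit, per the labels' protocols. The authors deposited raw counts per gene symbol, made with HTSeq on build mm9, per the submitters' processing notes. What aligner, annotation and versions they used was not given in the sources used here. The authors also deposited 2 tables of nicotine against air with, per the file headers, a mean signal of scaled counts, log2 fold changes with their standard errors, a score (the statistic) and p-values. Only their log2 fold changes and p-values were used.

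Genes passing edgeR's low-count filter were fitted in 1 model over the 4 groups (edgeR 4.0.16 quasi-likelihood with robust spread and TMM factors, R 4.3.3), and p-values were adjusted by the Benjamini-Hochberg method over 14621 genes at a threshold of 0.05. Log2 CPM used a prior count of 2. DESeq2 1.42.0, limma 3.58.1 voom, other scalings and filters, marker scores as covariates and leaving out each library were alternatives. Chain ratios were tested by exact permutation within strata. The fit was tested on simulated data. Levels per kilobase used GRCm38 transcript lengths, since no mm9 annotation was used here. Nothing was joined by coordinates.

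The members and lists were chosen with earlier results of these data known. From each list the text could name genes past the threshold, otherwise the 2 with the smallest unadjusted p in nicotine in WT, nicotine in KO, the interaction and genotype averaged over exposures. It could also name the 5 other collagen genes with the highest mean CPM and the 10 genes most like the members' mean. Marker lists were fibroblast, smooth muscle, endothelial, adipocyte, macrophage, skeletal muscle, mesothelial, cartilage, Schwann cell and hepatocyte.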

Additional observations from a re-analysis of the deposited data

How the results depend on the processing

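No paired analysis was possible because the groups share no replicate numbers. Across all alternatives, 0 of 10 collagen genes passed in each comparison, with 1 exception: for KO against WT under nicotine the count was 1 (Col14a1) with DESeq2 and 1 with DESeq2 on the compared groups alone, the latter chosen after seeing the data. DESeq2 also gave more calls over all genes than edgeR (100 against 3 for nicotine in WT, 76 against 1 for KO against WT under nicotine). The direction of Col14a1 for nicotine in WT, for KO against WT under nicotine and for the interaction was the same under every alternative run. With 3 libraries a group, the median standard error of 0.20 limits what could be called. The directions that follow belong to differences that did not pass the test, and the cause of each change was not tested.

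A covariate for the adipocyte score turned the sign of these log2 differences. The values were Col5a1 0.19, Col6a1 0.21, Col6a2 0.10 and Col15a1 0.26 for nicotine in WT. They were Col1a2 0.0410, Col5a2 0.15 and Col15a1 0.0420 for nicotine in KO. They were Col6a2 -0.14 and Col15a1 -0.22 for the interaction. They were Col1a2 0.0976, Col5a1 0.0398, Col6a1 0.0513 and Col6a2 0.0187 for KO against WT in air. They were Col5a1 0.0405, Col6a1 0.0849, Col6a2 0.0322 and Col15a1 0.15 for nicotine averaged over genotypes. With the fibroblast score as a covariate, chosen after seeing the data, the median of the 10 genes was -0.21 for nicotine in WT, 0.15 for the interaction and 0.0561 for KO against WT under nicotine. Signs turned there as well. The values were Col1a1 -0.14, Col1a2 -0.18, Col5a2 -0.34 and Col8a1 -0.0964 for nicotine in WT. They were Col5a2 0.0696 for nicotine in KO. They were Col1a1 0.0721, Col1a2 0.16, Col5a1 0.21, Col5a2 0.41 and Col6a1 0.14 for the interaction. They were Col14a1 -0.0165 and Col15a1 -0.13 for KO against WT in air. They were Col1a1 0.13, Col1a2 0.0392, Col5a1 0.0657, Col5a2 0.17, Col6a1 0.0465 and Col6a2 0.22 for KO against WT under nicotine. They were Col1a1 -0.10, Col1a2 -0.0983, Col3a1 -0.0837 and Col5a2 -0.13 for nicotine averaged over genotypes. They were Col1a1 0.0907, Col6a2 0.0260 and Col8a1 0.0545 for genotype averaged over exposures.

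Col5a2 for nicotine in KO lay near 0, at 0.00484 with DESeq2, 0.000266 with DESeq2 on the compared groups, 0.00657 with its size factors in edgeR, 0.00574 with TMM factors from the other genes, 0.00809 with a mean CPM of at least 5 and 0.00408 with only the compared groups. With upper-quartile factors Col5a2 was -0.00128 for nicotine in WT and -0.00840 averaged over genotypes. With TMM factors from the other genes the interaction of Col6a2 was -0.00295.

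Leaving out 1 library at a time moved the median of the 10 genes as follows. It ran from -0.0287 to 0.20 for nicotine in WT, -0.39 to -0.0711 for nicotine in KO, -0.43 to -0.13 for the interaction, -0.11 to 0.15 for KO against WT in air, -0.43 to -0.16 for KO against WT under nicotine, -0.13 to 0.0161 for nicotine averaged over genotypes and -0.25 to -0.0564 for genotype averaged over exposures. The adipocyte fit gave medians of 0.32, -0.0417, -0.39, 0.11, -0.28, 0.19 and -0.0912 in that order. Leaving out 1 library also turned the sign of single differences. For nicotine in WT the range was Col5a1 -0.19 to 0.00390, Col5a2 -0.0529 to 0.15, Col6a1 -0.0623 to 0.0638, Col8a1 -0.0472 to 0.25. For nicotine in KO the range was Col1a2 -0.28 to 0.0316, Col5a2 -0.22 to 0.15, Col15a1 -0.54 to 0.0127. For the interaction the range was Col5a1 -0.35 to 0.0115, Col5a2 -0.26 to 0.12, Col6a2 -0.17 to 0.10, Col15a1 -0.19 to 0.39. For KO against WT in air the range was Col1a2 -0.17 to 0.13, Col5a1 -0.19 to 0.0909, Col6a1 -0.13 to 0.0932, Col6a2 -0.19 to 0.0367, Col14a1 -0.0412 to 0.17, Col15a1 -0.19 to 0.25. For KO against WT under nicotine the range was Col15a1 -0.17 to 0.40. For nicotine averaged over genotypes the range was Col1a1 -0.0381 to 0.18, Col1a2 -0.0310 to 0.13, Col3a1 -0.0934 to 0.12, Col5a2 -0.0864 to 0.0862. For genotype averaged over exposures the range was Col1a1 -0.24 to 0.0137, Col8a1 -0.10 to 0.0467, Col15a1 -0.0794 to 0.21. Among the chain ratios it did so for genotype on Col5a1 over Col1a1 (-0.12 to 0.0302), genotype on Col5a1 over Col5a2 (-0.0406 to 0.0701), genotype on Col6a1 over Col6a2 (-0.0458 to 0.000795), nicotine on Col1a1 over Col1a2 (-0.0277 to 0.0653).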
